A study of Mus with 2 samples.

Results

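Spots of the control tumor section that carried the most skeletal muscle transcripts were described here. They were the 100 spots, of 2219 kept in that section and 4169 kept in both sections, with the highest summed counts of Acta1, Ckm, Myh4, Myh1, Tnnt3, Tnni2 and Mylpf. Spots were kept when they showed more than 200 genes, and ties were settled by the higher share of the spot's own counts. The spots were therefore selected on these 7 genes, and the levels of these genes are a description of the choice and not a finding. The members are called muscle-gene spots below, and they were compared with the 1485 control spots that held 0 counts of the 7 genes, called zero spots.

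The tissue was CT26, a BALB/c mouse colon carcinoma cell line, grown under the skin of BALB/c mice aged 6-8 weeks and collected on day 15. One tumor came from a control mouse given PBS, and the other from a mouse given 10 µg of recombinant IL-7 (rIL7) into the abdominal cavity on days 11 and 13. One frozen section of each tumor was laid on a Visium array, whose spots each capture polyadenylated RNA from a small disc of tissue that can hold several cells or parts of cells. A unique molecular identifier (UMI) tags every captured molecule so that copies of it add no count, and counts scaled to a total of 1000000 UMIs (CPM) put spots or groups of spots on one scale. With 1 section in each group there is no replicate, so no p-value is given, and every interval is a 95% counting interval (exact Poisson for levels, Clopper-Pearson for shares and ratios) that covers counting error only. The control section held 22951678 UMIs with a median of 9623 per spot, and the rIL7 section 25729233 with a median of 12921.5. Spot barcodes mark array positions, and 1702 of them occurred in both sections.

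Skeletal muscle contracts through the sarcomere, in which thick filaments of myosin pull on thin filaments of actin under the control of troponin and calcium. Fast and slow fibres use different versions of these proteins. Muscle that forms in the embryo, or again after injury, first makes developmental versions of myosin and troponin, after myoblasts have switched on myogenin and fused. A thin sheet of striated muscle lies beneath the skin of the mouse trunk.

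The muscle-gene spots lay deep inside the section and clustered together. None of the 100 was within 2 grid steps of the tissue outline, a share of 0% with an upper bound of 3.62%, whereas 313 of 1485 zero spots were there (21.1%, 19.03 to 23.24) and 401 of all 2219 spots (18.1%). Members stood 6 to 22 steps from the outline, with a median of 14 steps against 6 for the zero spots. By distance from the outline, 0 of 888 spots at 1 to 5 steps were members, 4 of 528 at 6 to 9 steps, 40 of 401 at 10 to 13 steps, 38 of 258 at 14 to 17 steps and 18 of 132 at 18 to 22 steps. The 7 genes together rose over these bands from 25.7 CPM at the outline to 232 CPM in the deepest band. Total counts went the other way, from a median of 10706 UMIs per spot in the outermost band to 6600 in the deepest.

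The 100 spots formed 21 patches of touching spots. The largest patch had 36 spots and 391 UMIs of the 7 genes, the next had 13 spots and 128 UMIs, and the third 11 spots and 70 UMIs. The 7 patches of 5 or more spots held 82 members, and 11 members touched no other member. The map of the control section shows the largest patch low and left of the section's centre and the second to its right.

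**Figure D1:**
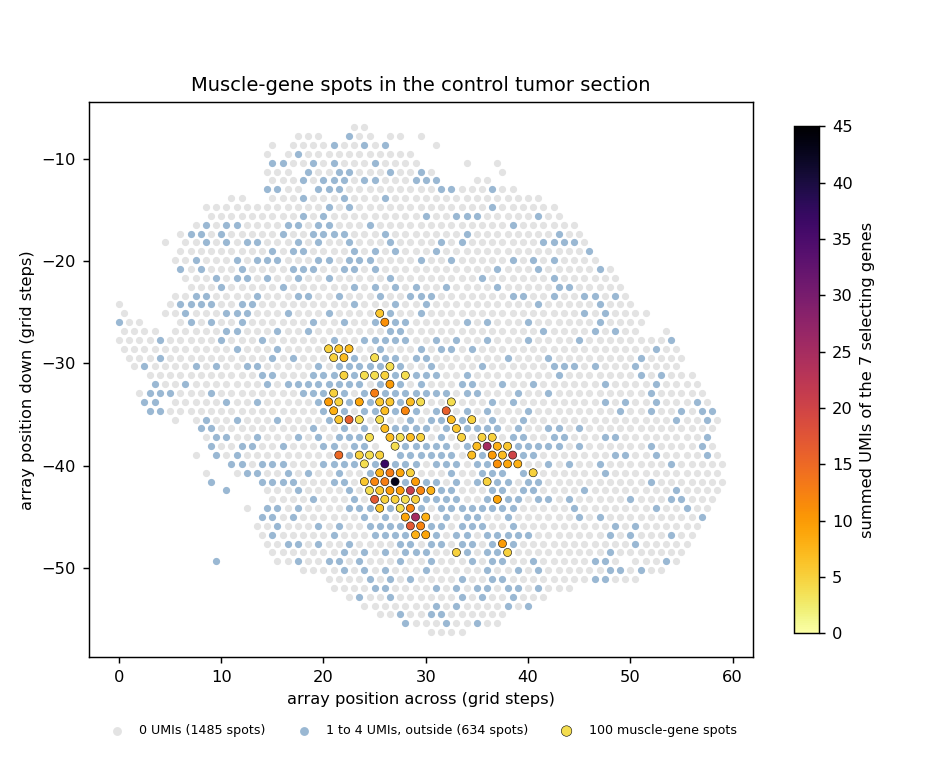
Map of the control section, with each point a kept spot at its array position (both axes in grid steps). Grey spots held 0 UMIs of the 7 selecting genes, blue spots held 1 to 4 and were not chosen, and outlined spots are the 100 members coloured by their summed UMIs (4 to 43); all members lie at least 6 steps inside the outline.

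Muscle transcripts were a small part of what these spots captured. The 7 genes summed to 4 UMIs in the lowest member, 7 in the median member and 43 in the highest, which was 0.482% of that spot's 8916 UMIs. Over all members they made up 863 of 859750 UMIs, or 0.100%. The last member held 4 UMIs of the 7 genes (442 CPM) and the first spot outside also held 4 (423 CPM). Of 22 spots with 4 UMIs, 17 were members and 5 were not. Members captured a median of 8552 UMIs and 3677.5 genes, below the 9767 UMIs and 4008 genes of the zero spots. The median share of mitochondrially encoded UMIs was 0.147% in members and 0.186% in zero spots. Results that shifted against zero spots matched on UMIs or after thinning are given with those values.

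Acta1, the skeletal muscle alpha-actin of the thin filament, gave the most counts of the 7, with 333 UMIs in members (387 CPM, 347 to 431), at least 1 in 94 members and up to 18 in one. Mylpf, the regulatory light chain of fast myosin, gave 286 UMIs (333 CPM, 295 to 374) in 87 members. The fast troponins Tnnt3 and Tnni2, which hold the calcium switch on the thin filament, gave 93 UMIs in 59 members and 62 UMIs in 43 members. The fast myosin heavy chains Myh1 and Myh4 gave 48 UMIs in 32 members and 25 UMIs in 20 members. Ckm, the muscle creatine kinase that regenerates ATP, gave 16 UMIs in 13 members (18.6 CPM, 10.6 to 30.2). Of the 4 marker genes named for these spots, Acta1, Mylpf and Tnnt3 were thus present in most members, while Ckm was absent from 87 of them. In GRCm38, Acta1 (ENSMUSG00000031972) spans 123891758 to 123894775 on chromosome 8 and Mylpf (ENSMUSG00000030672) 127208848 to 127214288 on chromosome 7. The 5 heavy chain genes Myh1, Myh2, Myh3, Myh4 and Myh8 lie side by side on chromosome 11 and are alike in sequence, so the split of reads among them is uncertain. The same holds for Acta1 and the other muscle actins.

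The members held 54.6% of the control section's Acta1 UMIs, 47.2% of its Mylpf, 62.3% of its Myh1 and 65.8% of its Myh4, but 32.6% of its Tnni2 and 36.4% of its Ckm. Tnni2 made up 7.18% of the 7-gene UMIs in members, 14.7% in the control spots outside the members and 44.1% in the rIL7 section. As the 7 genes chose the members, these shares describe the choice.

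Genes that took no part in the choice also differed. Of 7593 other genes that averaged 20 CPM or more over the members and the zero spots, 21 (0.277%) were at least 2-fold higher in the members and 19 (0.25%) at least 2-fold lower. For all 40 genes the counting interval of the ratio excluded 1. The 20 CPM level and the 2-fold limit together leave counts at which this outcome is set, so it adds no support. The median ratio over all 7593 genes was 1.02. The 20 CPM level is a mean of both groups, so a gene nearly absent from zero spots could reach it only by being far higher in members, as Casq1, Atp2a1, Myl1, Tnnc2 and Des did. Counts of muscle genes among the 21 are therefore largely set by that filter. Of the 10 genes in the lists of muscle genes outside the rule that reached it, 8 were among the 21, and the 2 others were the tropomyosins Tpm1 (1.09-fold, 1.01 to 1.18) and Tpm2 (1.85-fold, 1.53 to 2.22), which many other cells also make. The zero spots were picked for lacking muscle genes, so their lack of other muscle genes is partly fixed by that choice. The ratio against the zero spots within 3 steps of a member, called nearby below, is given for the main genes, and ranges are given against all 2119 spots outside the members.

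There was a gap in size among the 21 genes. Casq1, Atp2a1, Myl1, Tnnc2, Myl4, Des, Ttn, Pdlim3, Mybph, Flnc, Cryab and H19 were at least 5-fold higher (5.52-fold to 79.4-fold), and the other 9 were less than 3-fold higher (2.01-fold to 2.62-fold). Against the 197 zero spots within 3 steps of a member, the 12 genes were 3.71-fold to 36.2-fold higher. Against all spots outside the members they were 5.09-fold to 51.4-fold higher. The lower 9 were the glycolytic enzymes Eno3 and Pfkm, the muscle caveola protein Cavin4, the mitochondrial calcium regulator Mcur1, the secreted glutathione peroxidase Gpx3, the cell cycle factor E2f2, the DNA repair gene Brca1, and Mettl27 and Zfp773. Within 3 steps 5 of these 9 were at least 2-fold higher. The 21 were chosen on these same member counts, so ratios above 1 against the other sets are partly set by that choice.

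Among contractile genes outside the rule, Myl1, the fast essential light chain, was counted 110 times in members and 25 times in all zero spots (128 against 1.63 CPM, 78.6-fold, 50.5 to 127). At least 1 Myl1 UMI was seen in 53 members and in 1.55% of zero spots. Tnnc2, the fast calcium-binding troponin, was at 83 against 22 UMIs (67.4-fold, 41.7 to 113) and occurred in 57 members. Both were also higher than in nearby zero spots, Myl1 by 15.3-fold (8.60 to 29.7) and Tnnc2 by 11.6-fold (6.41 to 22.6). Myh2, the IIa heavy chain, was at 22 against 6 UMIs (65.5-fold, 25.7 to 197, and 13.3-fold nearby). Actn3, the alpha-actinin of fast fibres, was at 29 against 32 UMIs (16.2-fold, 9.44 to 27.6, and 5.84-fold nearby).

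The sarcomere scaffold followed the same direction. Des, the intermediate filament desmin that ties myofibrils together, was at 102 UMIs in 54 members against 46 UMIs in 3.03% of zero spots (39.6-fold, 27.7 to 57.4, and 13.2-fold nearby), with up to 11 UMIs in one spot. Pdlim3, a Z-disc partner of alpha-actinin, was at 40 against 9 UMIs (79.4-fold, 37.9 to 186, and 36.2-fold nearby). Mybph, myosin-binding protein H, was at 59 against 24 UMIs (43.9-fold, 26.9 to 73.8, and 7.63-fold nearby), and Flnc, the muscle filamin, at 44 against 54 UMIs (14.5-fold, 9.54 to 22.1, and 6.13-fold nearby). Ttn, the giant spring titin, was 5.91-fold higher (4.08 to 8.40) and 3.71-fold higher nearby. Csrp3, a Z-disc LIM protein, was at 24 against 12 UMIs (35.7-fold, 17.2 to 78.4, and 8.69-fold nearby), and 16 of its 24 UMIs were in the largest patch. Cryab, the small heat shock protein that chaperones desmin, was 5.52-fold higher (4.25 to 7.11) and 4.19-fold higher (2.79 to 6.42) than in nearby zero spots.

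Calcium handling genes were high in the same spots. Casq1, the calcium store of the sarcoplasmic reticulum, was at 44 against 10 UMIs (78.6-fold, 39.0 to 175, and 19.9-fold nearby) and reached 10 UMIs in one member. Atp2a1, the fast-fibre calcium pump, was at 37 against 13 UMIs (50.8-fold, 26.4 to 104, and 13.4-fold nearby). Ryr1, the calcium release channel, was at 20 against 35 UMIs (10.2-fold, 5.58 to 18.2, and 9.06-fold nearby). In energy metabolism the muscle cytochrome oxidase subunits Cox8b (14 against 6 UMIs, 41.7-fold, 15.0 to 132, and 12.7-fold nearby) and Cox6a2 (21 against 59 UMIs, 6.36-fold, 3.67 to 10.6, and 9.51-fold nearby) were higher. Eno3 was 2.19-fold (1.74 to 2.74) and Pfkm 2.01-fold higher (1.46 to 2.72), and nearby they were 1.79-fold and 1.77-fold higher.

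**Figure D2:**
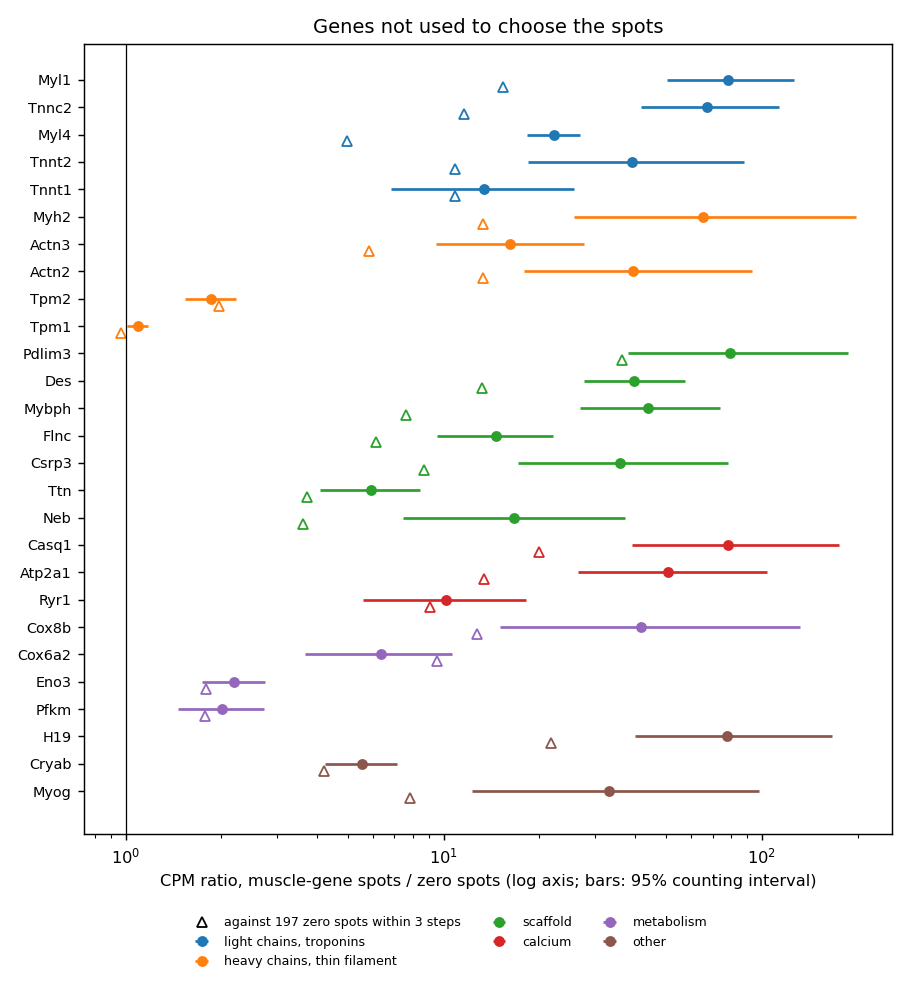
CPM ratio of muscle-gene spots to zero spots on a log axis for genes that did not choose the spots, with filled points against all 1485 zero spots (bars are 95% counting intervals) and open triangles against the 197 zero spots within 3 steps. Most muscle genes lie 10-fold or more to the right of 1 against all zero spots, and all but Cox6a2, Tpm2 and Tpm1 keep a smaller ratio above 1 nearby; Tpm1 is at 0.968.

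Over the 54 muscle genes outside the rule, 45 had at least 1 UMI in members and all 45 were at a higher CPM there than in zero spots. The 9 at 0 in members were Cmya5, Fbp2, Jph1, Myh7, Myl2, Myl3, Myot, Phkg1 and Trdn. A filter of 20 UMIs over both groups kept 31 genes, of which 30 were higher and 27 at least 2-fold higher. Over all 12694 genes with that many UMIs, 51.1% were higher and 2.38% at least 2-fold higher. The filter can pass a gene through the members alone, so these counts only describe. The median log2 ratio of the 31 was 3.35 (2.48 to 4.18, the medians of the genes' counting bounds), where the median over all 7593 tested genes was 0.03. Against nearby zero spots the median was 3.18, but over only the 19 genes that reached 20 UMIs in that comparison. The 2 medians are therefore not of the same genes. By list, the median log2 ratio was 5.02 for fast contractile genes, 4.05 for the sarcomere scaffold, 4.51 for calcium handling, 2.95 for slow and cardiac type genes and 1.13 for energy metabolism.

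Slow-fibre genes gave few counts. Most of the 7 selecting genes are fast-fibre forms, so a low count of slow-fibre genes is partly set by the choice. Myh7, the slow heavy chain, and the slow light chains Myl2 and Myl3 had 0 UMIs in members. The slow troponins Tnnt1 (18 against 24 UMIs, 13.4-fold, 6.85 to 25.7, and 10.9-fold nearby) and Tnni1 (12 against 8 UMIs, 26.8-fold, 10.1 to 75.5, and 7.25-fold nearby) were higher. So were Tnnc1 (16 against 95 UMIs, 3.01-fold, 1.65 to 5.14, and 2.07-fold nearby) and Myoz2 (6 against 24 UMIs, 4.46-fold, 1.49 to 11.2, and 3.62-fold nearby). Actc1 was at 7 against 3 UMIs (41.7-fold, 9.51 to 250, and 6.34-fold nearby). Pvalb, the calcium buffer of fast fibres, and Mb, the oxygen store myoglobin, had 1 UMI each in members and 3 each in the whole control section.

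Developmental genes of muscle were counted in the same spots. Myl4 (ENSMUSG00000061086, chromosome 11, 104546017 to 104587215 in GRCm38), the light chain of embryonic muscle and of the atrium, gave 242 UMIs in 76 members, with a median of 2 and a maximum of 12 UMIs, against 195 UMIs in 11.0% of zero spots (281 against 12.7 CPM, 22.2-fold, 18.3 to 26.9). Thinned to 5000 UMIs per spot, Myl4 was still seen in 63.6% of members and 6.44% of zero spots. It was 4.98-fold higher (3.89 to 6.43) than in nearby zero spots. Tnnt2, the troponin T of the heart and of embryonic muscle, was at 24 against 11 UMIs (39.0-fold, 18.4 to 88.1, and 10.9-fold nearby). Myog, the factor that commits myoblasts to differentiate, was at 13 against 7 UMIs (33.2-fold, 12.3 to 98.2, and 7.85-fold nearby), and Mymk, which fuses myoblasts, at 10 against 5 UMIs. The embryonic heavy chain Myh3 and the perinatal heavy chain Myh8 were at 6 against 4 and 11 against 4 UMIs. Together these made 17 UMIs, beside 95 for the adult fast chains Myh1, Myh2 and Myh4. Myh1 and Myh4 were among the 7 genes that chose the members, so this balance is largely set by the choice. Myh2, which took no part in the choice, gave 22 UMIs.

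The rest of the 14-gene myogenic list was sparse. The fusion peptide gene Mymx had 6 UMIs in members and 2 in zero spots, the fetal acetylcholine receptor subunit Chrng 7 and 2, the cadherin of muscle precursors Cdh15 4 and 0, and Myod1, the myoblast-determining factor, 4 and 1. Chrna1, the receptor's alpha subunit, was at 15 against 168 UMIs, and its ratio of 1.59 had an interval of 0.873 to 2.71 that contained 1. Pax7 and Myf5, which mark satellite cells, and the receptor kinase Musk had 0 UMIs in members. In all, 11 of the 14 genes were at a higher CPM in members, 7 of them on fewer than 20 UMIs in both groups, beside 51.1% of all genes with 20 UMIs. The list summed to 398 against 26.0 CPM.

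H19, an imprinted noncoding RNA made in embryonic muscle and mostly silent in adult tissue, was at 48 UMIs in 37 members against 11 UMIs in 0.741% of zero spots (77.9-fold, 39.9 to 166, and 21.7-fold nearby). It was the gene with the largest ratio against all spots outside the members among the 21 (51.4-fold). H19 lies on chromosome 7 at 142575530 to 142578146 (GRCm38), near Tnni2 at 142441816 to 142444410 and Tnnt3 at 142498771 to 142516213. Of neighbours looked up after these values were seen, Lsp1 was at 0.915 (0.713 to 1.16) and Mrpl23 at 0.972 (0.808 to 1.16), and Igf2, the imprinted partner of H19, had 1 UMI in members and 1 in zero spots, too few to give a ratio of use (17.9-fold, 0.227 to 1402).

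Ankrd1, a stretch-responsive Z-disc repressor, was at 123 against 1191 UMIs (1.84-fold, 1.52 to 2.22, and 1.61-fold nearby). Of other genes linked to muscle wasting, the ubiquitin ligases Fbxo32 (9 against 116 UMIs, 1.39-fold, 0.618 to 2.72) and Fbxo30 (12 against 154 UMIs, 1.39-fold, 0.704 to 2.50) had intervals that contained 1. The ligase Trim63 had 0 UMIs in members and 1 in zero spots, and the growth inhibitor Mstn had 0 in both, so neither could be compared.

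Levels of muscle genes fell away from the members over a few grid steps. The 7 genes, which fix the member level by the choice, were at 161 CPM in the 185 spots 1 step away, 92.1 CPM at 2 steps, 69.0 CPM at 3 steps and 21.4 CPM at 11 steps or more. A set of 50 other muscle genes, leaving out the widely made Tpm1, Tpm2, Eno3 and Pfkm, went from 894 CPM in members to 262, 127 and 91.6 CPM at 1, 2 and 3 steps and 48.0 CPM at 11 steps or more. Des went from 119 to 32.8 and 9.74 CPM at 1 and 2 steps. H19 went from 55.8 to 8.20 and 0.886 CPM. Myl4 went from 281 to 94.3 and 44.3 CPM, and was at 5.16 CPM at 11 steps or more. Fewer muscle cells in a spot and less muscle RNA per cell cannot be told apart here.

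**Figure D3:**
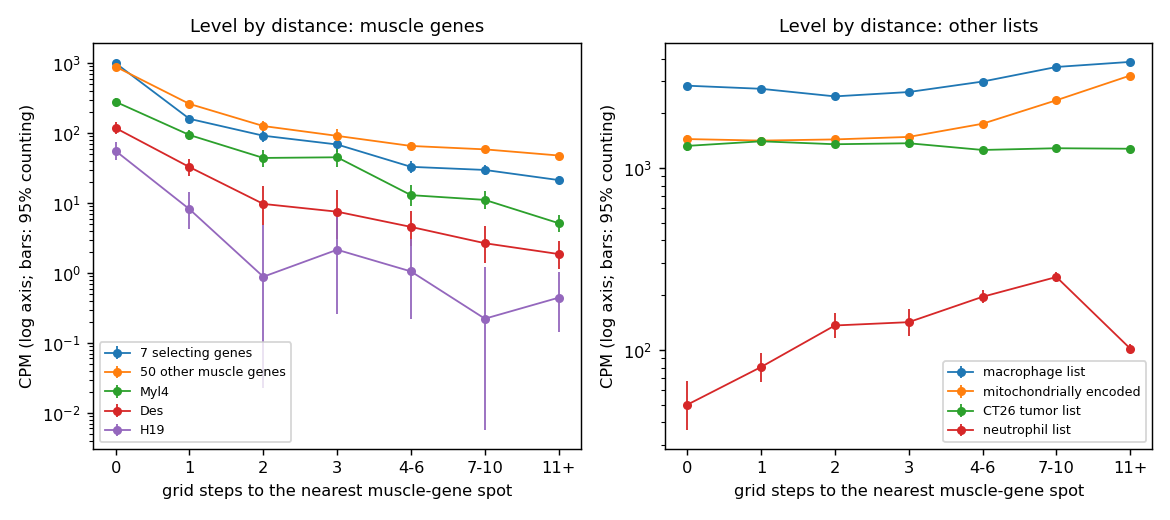
CPM (log axis, bars are 95% counting intervals) by grid steps to the nearest muscle-gene spot, with 0 standing for the members; muscle genes on the left and other lists on the right. Left, the 7 selecting genes, 50 other muscle genes, Myl4, Des and H19 all fall from members to 2 steps; right, the macrophage and mitochondrially encoded lists are higher far away (3832 and 3225 CPM at 11 steps or more), neutrophil genes rise from 50.02 CPM in members to 252 CPM at 7 to 10 steps, and the CT26 list is level.

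Members also varied among themselves. The 20 highest held 362 of the 863 UMIs of the 7 genes (2046 CPM), the next 30 held 254 (968 CPM) and the last 50 held 247 (588 CPM). For the 7 genes this order is set by the ranking. The 50 other muscle genes followed this order at 1707, 930 and 531 CPM, and the myogenic list at 656, 507 and 221 CPM, with counting intervals that did not overlap between the first and the last tier. Across the 100 members Spearman's rho was 0.60 between UMIs of the 7 genes and of the 50 other muscle genes, and 0.52 with the myogenic list. Over all 2219 control spots rho was 0.28 and 0.27. These describe spots of one section that differ in depth and share neighbours.

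Muscle genes were counted in differing proportions among the patches. In the largest patch Myl4 was counted 102 times and Acta1 159 times, a ratio of 0.642 (0.495 to 0.828), while in the second they were counted 64 and 42 times, a ratio of 1.52 (1.02 to 2.31). The third patch was at 12 and 23 UMIs, a ratio of 0.522 (0.237 to 1.09). Myl4 was thus higher relative to Acta1 in the second patch than in the largest, with intervals that did not overlap. These intervals cover counting error only, and Acta1 helped choose the spots, so the ratios describe these patches. The largest patch held 9 of the 16 Ckm UMIs of the members, 25 of 40 for Pdlim3 and 26 of 44 for Casq1, and the third patch held 9 of 25 for Myh4. The highest member, in the largest patch, held 18 Acta1, 18 Mylpf, 13 Myl1, 12 Myl4, 11 Des and 6 Tnnc2 UMIs.

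**Figure D4:**
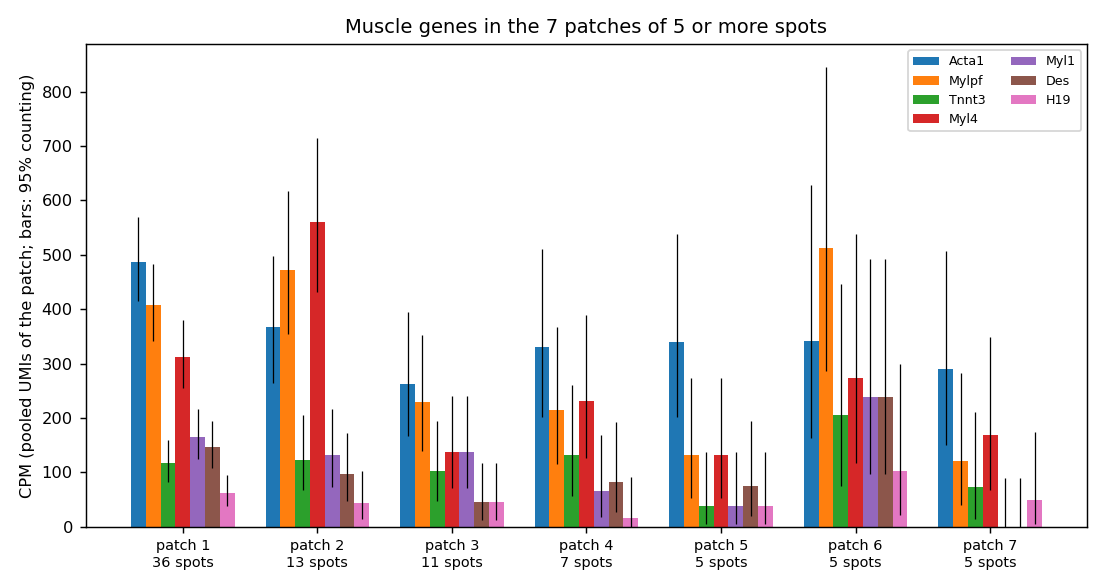
Pooled CPM of Acta1, Mylpf, Tnnt3, Myl4, Myl1, Des and H19 in the 7 patches of 5 or more touching muscle-gene spots, bars with 95% counting intervals. Acta1, Mylpf and Tnnt3 helped choose the spots; the second patch is the only one of the 7 in which Myl4 (64 UMIs) stands above Acta1 (42 UMIs).

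The CT26 list, 2 genes of the tumor line, was at 1324 against 1285 CPM, and the fibroblast list of 9 collagen and matrix cell genes at 1928 against 1988 CPM. Genes of proliferation were at 1002 against 1031 CPM. Smooth muscle genes were at 18.6 against 21.7 CPM and Schwann cell genes, which would mark nerve, at 17.4 against 21.7 CPM. Tendon genes had 0 UMIs in members and 22 in zero spots (1.43 CPM), and the interval of the ratio reached 3.26, so they could not be compared. Endothelial genes were at 73.3 against 95.2 CPM. Some sums rested on 1 widely made gene. Adipocyte genes were at 113 against 116 CPM, with 94 of 97 member UMIs from the fatty acid carrier Fabp4. Keratinocyte genes were at 55.8 against 74.7 CPM, with 46 of 48 member UMIs from Krt10, while the basal keratins Krt14 and Krt5 were at 0 against 220 and 0 against 168 UMIs. Each of these 2 keratins was seen in only 1.68% of zero spots. Each had 1 UMI in the nearby zero spots and 0 in those matched on distance from the outline, so nearer spots lacked them too. T cell genes were at 134 against 137 CPM, with 86 of 115 member UMIs from the receptor gene Trbc2. With a 0 treated as in the list medians, 3 T cell genes were higher and 5 lower. Cd8a was at 9 against 104 UMIs (1.55-fold, 0.687 to 3.05) and Lck at 7 against 99 UMIs (1.26-fold, 0.495 to 2.70). Cd3e was at 0 against 56 UMIs, with an interval of 0 to 1.22 that also contained 1. Red blood cell genes gave 1 UMI and B cell genes 2 UMIs in members.

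Most neutrophil genes were lower in the muscle-gene spots. S100a8 and S100a9, the calprotectin subunits that neutrophils carry in bulk, were at 7 against 513 UMIs (0.244-fold, 0.0975 to 0.506) and 27 against 1450 UMIs (0.332-fold, 0.218 to 0.486), and were the 2 lowest ratios of the 7593 genes. Against the nearby zero spots S100a9 was at 0.433 (0.273 to 0.663) and S100a8 at 0.453, with an interval of 0.167 to 1.06 that contained 1. Of the 5 neutrophil genes with 20 UMIs, 4 were at least 2-fold lower, where 3.8% of all such genes were. Besides S100a8 and S100a9 these were Csf3r (0.311, 0.100 to 0.734) and G0s2. G0s2 had 1 UMI in members, and its interval of 0.0078 to 1.82 contained 1. The receptor Cxcr2 was at 0.992 (0.198 to 3.06). Other genes among the 19 that were 2-fold lower belong to myeloid cells, such as the Fc receptor Fcgr4 (0.411, 0.25 to 0.639), the chemokine receptor Ccr1 (0.420, 0.238 to 0.686) and the leukocyte tetraspanin Cd53 (0.416, 0.231 to 0.691). The rest of the 10 lowest were mt-Nd3 (0.349), a subunit of mitochondrial complex I, the fatty acid carrier Fabp5 (0.425), the TLR4 family partner Ly86 (0.428), the interferon-induced Slfn4 (0.429) and the kinase gene Rock1 (0.444). None of the 19 belonged to a muscle or myogenic list. The 19 were chosen for low counts in these members, and each further comparison reuses those counts. Ratios below 1 are therefore partly set by the choice. Against nearby zero spots 18 of the 19 were below 1, but only 7 were at least 2-fold lower (median ratio 0.604). Against 100 zero spots matched on distance from the outline, 11 of the 19 were at least 2-fold lower. The nearby interval contained 1 for Cd53 (0.715), Ly86 (0.604), Slfn4 (0.615) and mt-Nd3 (0.725). It excluded 1 for Fcgr4 (0.549), Fabp5 (0.531), Rock1 (0.415) and Ccr1 (0.268 to 0.881).

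Macrophage genes (8 of 8, such as the complement genes C1qa to C1qc and Cd68), MHC class II genes (4 of 4), interferon response genes (7 of 7) and mitochondrially encoded genes (12 of 12) were lower than in all zero spots. Of all genes with 20 UMIs, 51.1% were higher. The intervals of some list genes, such as Adgre1 (0.678 to 1.34) and Gbp2 (0.643 to 1.31), contained 1. The median log2 ratios of these lists were -0.25 (-0.474 to -0.0364), -0.38 (-0.554 to -0.219), -0.45 (-0.788 to 0.0986) and -0.73 (-1.14 to -0.458). These values depended on which zero spots were used. Against zero spots within 3 steps the medians were 0.08, 0.06, 0.28 and -0.16, and against 100 zero spots matched on distance from the outline they were 0.11, 0.05, 0.14 and -0.37. Against 100 zero spots matched on total UMIs, which had a median of 7 steps from the outline, they were 0.09, 0.01, -0.62 and -0.34. In these nearer or matched sets the bounds of all the medians contained 0. For interferon response genes they were -1.1 to 0.0827 matched on UMIs and -0.246 to 0.74 nearby. Nearby and distance-matched spots also had fewer UMIs (medians of 7793 and 8699) than all zero spots, so position and depth cannot be told apart for these lists. Neutrophil genes were low in each (-1.67 against all zero spots, -1.21 nearby, -2.79 matched on distance and -1.58 matched on UMIs), though with members ranked by CPM the median was -0.717 (-1.56 to 0.0942). The same direction was seen for hypoxia and glycolysis genes (-0.24, -0.28, -0.36 and -0.41). The filter of 20 UMIs was applied anew to each set, and kept 5 neutrophil genes against all zero spots, 3 nearby and 3 matched on distance.

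**Figure D5:**
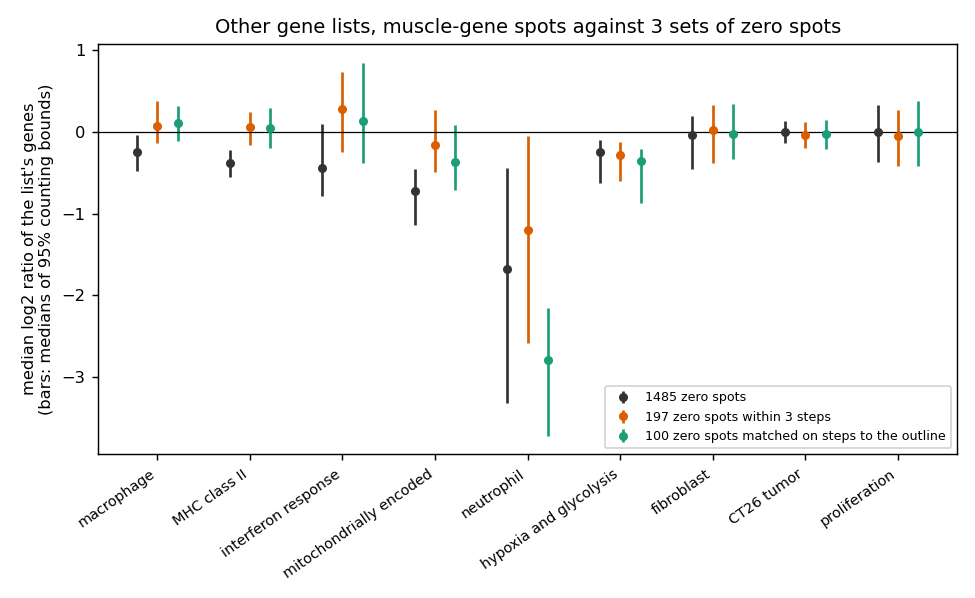
Median log2 CPM ratio of muscle-gene spots to 3 sets of zero spots for 9 gene lists (points; bars are the medians of the genes' 95% counting bounds). Points of the macrophage, MHC class II and interferon response lists are below 0 against all zero spots and above 0 against nearby and distance-matched ones. Their bars contain 0 in the nearby and distance-matched sets, and for interferon response also against all zero spots. Neutrophil and hypoxia lists stay below 0.

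The rIL7 section held far fewer counts of these genes, at 320 UMIs of the 7 genes (12.4 CPM, 11.1 to 13.9) against 1734 in the control section (75.6 CPM, 72.0 to 79.2). At least 1 UMI was seen in 294 of its 1950 spots (15.1%, 13.5 to 16.7), against 734 of 2219 control spots (33.1%, 31.1 to 35.1), and none held more than 3. The same selection there took 100 spots with 126 UMIs in all, 77 of them with 1 UMI, in 79 patches of at most 4 spots, and 21% of them were at the edge. Acta1 was counted 610 times in the control and 23 times in the rIL7 tissue, Myh1 77 and 0, Myl1 188 and 2, Tnnc2 142 and 2, and Pdlim3 64 and 0. Myl4 had 617 and 88, Des 214 and 46, H19 72 and 15, Myog 27 and 0 and Tnnt2 54 and 0, while Tnni2 had 190 and 141. Treatment, mouse and the plane of the cut cannot be told apart with 1 section in each group.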

How the data were processed

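Visium sections were used from 1 control tumor and 1 rIL7-treated tumor. The authors aligned and counted the reads with Space Ranger 1.1.0 against mm10 and deposited raw UMI counts per gene and spot, with spot positions. Muscle-gene spots were ranked by summed counts of 7 genes in control spots with over 200 genes. Members and gene lists were chosen with earlier results of these data known. Counts were pooled over spots and scaled to CPM. Ratios were computed against zero spots with Clopper-Pearson intervals at 95%, with no test, since each group is 1 library. A count of 0 was set to 3 UMIs in list medians, or to a ratio of 1 where that bound passed 1. Named genes were the 7 rule genes, muscle list genes with 20 UMIs, and the 10 largest and 10 smallest ratios at a mean of 20 CPM. Other genes were named after their values were seen, or to account for a whole list. Grid steps count hexagonal neighbours, and the edge is within 2 steps. Symbols matched RefSeq (GRCm38.p6) for 7506 of 7593 tested genes. Ratio recovery was tested on simulated counts. Python 3.11.15, numpy 2.4.6, scipy 1.17.1 and pandas 2.3.3 were used.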

Additional observations from a re-analysis of the deposited data

How the results depend on the processing

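Alternatives were other members (50 highest spots, ranking by CPM, over 1000 genes, without the largest patch), other comparison spots (matched on UMIs, within 3 steps, interior only, and, chosen after seeing the data, matched on steps to the outline or all spots outside), thinning to 5000 UMIs, spots weighted equally, a wider edge, and other size limits. The muscle, myogenic and neutrophil lists kept their direction under each one run.

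The counts of genes at least 2-fold higher and lower (21 and 19) were 52 and 69 with the 50 highest spots, 62 and 40 with zero spots matched on UMIs, 32 and 56 without the largest patch, 48 and 46 matched on steps, 162 and 191 at a mean of 5 CPM, and 139 and 180 at a ratio of 1.5. The lower count was 49 after thinning. The filter of 20 UMIs was applied anew in each comparison, so list medians can rest on different genes. The myogenic median (4.76, over 4 genes) was 3.59 matched on UMIs, 2.32 within 3 steps and 2.99 matched on steps. Only 3 genes passed within 3 steps, and 3 matched on steps. The other muscle genes (3.35) were at 2.08 without the largest patch. In the same order of UMIs, 3 steps and steps matched, macrophage genes were at 0.0906, 0.0781 and 0.110, MHC class II genes at 0.00505, 0.0573 and 0.0501, and mitochondrially encoded genes at -0.335, -0.157 and -0.367. Interferon response genes were at -0.619 matched on UMIs, 0.279 within 3 steps and 0.137 matched on steps, neutrophil genes at -0.717 with members ranked by CPM, and MHC class II genes at -0.560 without the largest patch. The largest patch among the 50 highest spots had 13 spots. The cause of these shifts was not tested. No member held under 3 UMIs of the 7 genes, so that limit changed no member. No paired analysis was possible because each treatment had 1 section. Depth limits sparse genes, since a member captured a median of 8552 UMIs.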
